A study of Mus musculus with 2 samples.

Results

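The regions described here are 5023 open regions of mouse adrenal gland that lie far from any protein-coding gene. They are 7.64% of 65778 regions in which both libraries had a peak. To find them, overlapping peaks of the longer deposited peak list of each library were merged. A merged region with a peak of each library was kept where its centre lay in no protein-coding gene body and more than 100 kb from every protein-coding transcript start of the GENCODE vM21 annotation. DNase-seq maps open chromatin from the cuts that DNase I makes in the DNA of isolated nuclei. The adrenal glands came from adult male mice of the strain B6CASTF1/J, an F1 hybrid of C57BL/6J and CAST/EiJ parents, at an age of 18 to 20 months. The 2 libraries form 1 group, biological replicates 1 and 2, with separate tissue samples and 1 donor entry, so the labels do not say whether the samples came from separate animals. No treatment, genotype or age was compared, and no test between conditions was possible. Far intergenic regions are set beside 38758 other distal shared regions, more than 1 kb from any protein-coding start, and 21997 promoter regions within 1 kb of one.

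Open chromatin far from genes typically marks enhancers, which raise transcription of genes that may lie a long way off, sites bound by CTCF, the factor that anchors chromatin loops together with cohesin, and starts of noncoding RNAs. Long stretches without protein-coding genes often flank genes for developmental transcription factors and signals, whose expression is set by many scattered enhancers. In the adrenal gland, the nuclear receptor NR5A1 (SF-1) binds regulatory DNA of steroid-producing cortex cells.

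The authors' peak height is a depth-normalised signal, and in each library all heights were whole multiples of a step, 0.00531 in replicate 1 and 0.0075 in replicate 2. If 1 step is 1 cut, the median height of the far intergenic regions came from 107 and 103 cuts and the lowest from 15 and 11. Of 9 marker genes of the adrenal cortex, 6 had a shared region within 1 kb of a start, among them Star, Cyp11a1 and Nr5a1, and Cyp21a1, Hsd3b1 and Mc2r had none listed. Of 7 chromaffin cell markers, Chga, Chgb and Slc18a1 had one, Th, Dbh and Pnmt had none listed, and none of 4 markers of other organs had one. In whole tissue, an open site in fewer cells and a less open site in more cells give the same height and cannot be told apart.

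CTCF sites are shown first because, of 27 consensus sequences searched, CTCF had the largest ratio of far intergenic centres to their flanks. A match was found in 9.02% of far intergenic regions and was not particular to them, with 11.8% in other distal regions. The sequences are from the 5 highest regions with a CTCF consensus match inside a footprint, a short protected stretch within open chromatin, in both libraries. The sequence is that of the GRCm38 reference (mm10), which carries the alleles of C57BL/6J and not those of CAST/EiJ, written 5′ to 3′ on the strand named, and capitals mark the match.

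CTCF 1, chr8:20122184-20122225, plus strand: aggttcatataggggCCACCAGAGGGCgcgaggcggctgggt
CTCF 2, chr4:9135953-9135994, plus strand: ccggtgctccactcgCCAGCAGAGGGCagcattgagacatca
CTCF 3, chr2:172831257-172831298, plus strand: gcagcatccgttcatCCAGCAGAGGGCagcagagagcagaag
CTCF 4, chr12:77781558-77781599, minus strand: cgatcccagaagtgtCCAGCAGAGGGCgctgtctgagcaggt
CTCF 5, chr16:25064735-25064776, minus strand: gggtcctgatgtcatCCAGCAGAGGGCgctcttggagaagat

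Heights at these sites were 15.8 in replicate 1 and 14.6 in replicate 2 at CTCF 1, 218.8 kb from the predicted gene Gm31371. They were 7.03 and 6.67 at CTCF 2, 133.3 kb from Clvs1, a vesicle-trafficking gene. They were 5.54 and 6.38 at CTCF 3, 109 kb from Bmp7, which encodes a bone morphogenetic protein. They were 5.79 and 5.72 at CTCF 4, 412.7 kb from the predicted gene Gm6657, and 5.60 and 5.84 at CTCF 5, 222.1 kb from Tprg. They were chosen for their height. The window of CTCF 1 is not unique: 73.9% of its 36-base words occur more than once in the genome.

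The match to the NR5A1 consensus CAAGGTCA is shown because it is the site of the adrenal cortex factor, and it was far less often footprinted. Of 100 far intergenic regions with a match, 6 had it inside a footprint in both libraries, and 4 of the 5 highest of these are shown.

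NR5A1 1, chr4:131254420-131254459, plus strand: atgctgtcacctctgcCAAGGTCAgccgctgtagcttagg
NR5A1 2, chr10:120751545-120751584, plus strand: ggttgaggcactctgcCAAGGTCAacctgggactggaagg
NR5A1 3, chr10:126718172-126718211, plus strand: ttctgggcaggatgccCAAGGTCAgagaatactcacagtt
NR5A1 4, chr8:102596716-102596755, plus strand: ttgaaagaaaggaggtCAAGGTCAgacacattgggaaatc

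NR5A1 1, 310 kb from the cartilage matrix gene Matn1, had heights of 1.37 in replicate 1 and 1.81 in replicate 2. NR5A1 2, 119.6 kb from Msrb3, a methionine sulfoxide reductase, had 1.20 and 1.98. NR5A1 3, 183.2 kb from Atp23, had 0.520 and 1.22, and NR5A1 4, 188.9 kb from the cadherin gene Cdh11, had 0.712 and 0.922. The remaining one of the 5, chr18:64100621-64100780, ranked between NR5A1 2 and NR5A1 3 with 0.621 and 1.71, and its sequence is not shown. All 5 were higher in replicate 2, the direction of far intergenic regions in general, whose median ratio of replicate 1 to replicate 2 was 0.816. All 5 were lower in both libraries than any of the CTCF sites above, but those were the 5 highest of 355 and these 5 of 6. This order therefore says little about the 2 kinds of site. Over all far intergenic regions with a match, median heights were 0.486 and 0.589 for NR5A1 and 1.01 and 1.36 for CTCF.

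Of the 10 highest far intergenic regions, 3 are shown at the full 150 bp of their centre. They hold a repeated AP-1 consensus (TGANTCA), a CRE consensus (TGACGTCA) and the highest of the 5 regions farthest from a protein-coding start. Capitals mark consensus matches, and the last window holds none of the 27 searched.

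AP-1 pair, chr10:126511636-126511785, plus strand: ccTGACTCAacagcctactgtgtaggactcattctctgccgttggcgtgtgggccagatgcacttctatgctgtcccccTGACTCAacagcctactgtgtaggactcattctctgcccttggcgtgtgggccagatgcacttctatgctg
CRE, chr15:68363256-68363405, plus strand: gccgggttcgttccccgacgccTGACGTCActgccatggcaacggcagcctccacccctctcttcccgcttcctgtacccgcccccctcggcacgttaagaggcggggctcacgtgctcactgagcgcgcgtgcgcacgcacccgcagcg
Desert, chr1:102628186-102628335, plus strand: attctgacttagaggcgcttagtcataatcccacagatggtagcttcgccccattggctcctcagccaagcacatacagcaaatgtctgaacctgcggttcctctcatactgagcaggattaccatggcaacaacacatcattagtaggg

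The AP-1 window is a tandem repeat: shifted by 77 bp it matched itself at 98.6% of 73 bases, so both AP-1 matches are copies of 1 unit. The region had a height of 13.4 in replicate 1 and 5.92 in replicate 2 (9.65 ± 5.27, SD, n = 2), and relative to the median ratio of all shared regions it was 2.45-fold higher in replicate 1. The CRE window, 104.5 kb from Zfat and within 1 kb of the start of the noncoding gene Gm20732, had 8.96 and 9.08 (9.02 ± 0.0884). The desert window lay 2140 kb from Cdh20, a cadherin gene, and had 12.1 and 13.9 (13.0 ± 1.31). Of its 36-base words, 47.8% occur more than once in the genome, some of them 5 times, so the place of its reads is uncertain. Words were counted on the assembled chromosomes and the mitochondrial genome only, so copies missing from these do not enter the share. Whether reads from other copies of this sequence add to its height was not tested.

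Sequence far from genes held fewer open regions per length than the rest of the genome. The location rule covers 854.7 Mb, 32.3% of the known bases of chromosomes 1 to 19, X and Y, and this sequence held 5.88 far intergenic regions per Mb. The remaining sequence held 21.6 other distal shared regions per Mb, 3.68 times as many, and 33.9 shared regions per Mb when promoters are counted. Among chromosomes the far intergenic density was highest on chromosome 13, with 9.80 per Mb, followed by chromosome 9 with 8.79 and chromosome 2 with 8.12. On the X chromosome it was 2.31 per Mb, against 15.2 per Mb for other shared regions outside the eligible sequence, and this was the lowest density after the Y chromosome on both measures. The Y chromosome had 12 far intergenic regions, or 0.202 per Mb. Male cells carry 1 copy of each sex chromosome, and whether copy number or repeated sequence set these densities was not tested. Words repeated in the genome were found in the window of 332 far intergenic regions (6.61%), against 5.09% of other distal regions. Within the other distal class the share was 7.13% in intergenic regions 1 to 100 kb from a start and 3.44% in regions inside genes. Such words can make the place of a read uncertain.

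The regions lay a median of 191.9 kb from the nearest protein-coding start. The farthest was 2206 kb away, 465 (9.26%) were more than 500 kb away and 78 were more than 1 Mb away. Heights were lower the farther the regions lay. At 100 to 150 kb the 1623 regions had median heights of 0.648 in replicate 1 and 0.863 in replicate 2. At 300 to 500 kb the medians were 0.526 and 0.690, and beyond 1 Mb they were 0.348 and 0.469. The GC content of the central 150 bp was also lower with distance, with a median of 52.7% in the nearest bin and 48.7% in the farthest. Just inside the 100 kb limit, 398 regions 100 to 110 kb from a start had medians of 0.722 and 0.930, and 496 intergenic regions 90 to 100 kb from one had 0.680 and 0.908. Inside the limit 11.3% had a CTCF match and 85.7% a footprint in both libraries, against 7.46% and 80.4% outside.

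Far intergenic regions were lower than other open regions. Their median height was 0.568 in replicate 1 and 0.772 in replicate 2, against 0.897 and 1.15 for other distal regions and 2.14 and 2.14 for promoters. The same order held in both libraries. The distributions overlapped widely, with far intergenic quartiles of 0.398 and 0.940 in replicate 1 and other distal quartiles of 0.584 and 1.64. Widths did not set them apart, with a median of 200 bp for far intergenic and for other distal regions and 280 bp for promoters. The median GC content was 52.0% at far intergenic centres, against 54.0% at other distal centres and 65.3% at promoters. Windows 1 kb to each side of the far intergenic centres had a median of 43.7%.

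**Figure D1:**
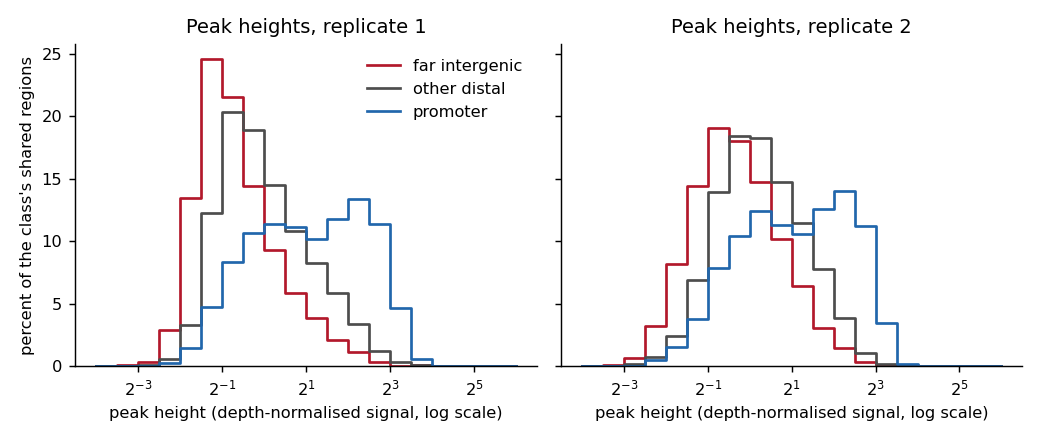
Distribution of peak heights (depth-normalised signal, log2-spaced horizontal axis) in each library as a percent of the regions of each class, for far intergenic, other distal and promoter regions. The far intergenic curve peaks at the lowest heights in both libraries, with medians of 0.568 and 0.772.

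Peaks far from genes recurred less often in the other library, and this went with their low height. Of 8810 far intergenic peaks of replicate 1, 58.1% (exact 95% interval 57.0 to 59.1) overlapped a peak of replicate 2, against 64.6% of other distal and 85.0% of promoter peaks. Of 12895 far intergenic peaks of replicate 2, 39.6% (38.8 to 40.5) overlapped a peak of replicate 1, against 52.5% and 80.4%. Intervals cover counting error only. Far intergenic peaks that recurred had a median height of 0.568 in replicate 1, and those that did not had 0.223. Within bins of height the order turned round in most bins. At heights of 0.5 to 1 in replicate 1, 92.4% of far intergenic peaks recurred, against 80.9% of other distal peaks, and in replicate 2 the shares were 58.0% and 47.1%. Under 0.25 in replicate 2 they were 7.79% and 11.4%, the only bin of either library where the far intergenic share was lower.

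Over all heights, more far intergenic than other regions were higher in replicate 2. The ratio of the heights was divided by its median over all shared regions and counted past 1.5-fold. By this measure 293 far intergenic regions (5.83%) were higher in replicate 1, beside 6.16% of all shared regions. In replicate 2, 1137 (22.6%) were higher, beside 12.3% of all shared regions, 15.8% of other distal regions and 3.58% of promoters. The lean towards replicate 2 was absent among the lowest regions. Below a mean height of 0.5, 12.4% of far intergenic regions were higher in replicate 1 and 11.2% in replicate 2, against 12.5% and 8.44% of other distal regions. At 0.5 to 1 the far intergenic shares were 3.48% and 32.6%, against 5.10% and 20.4%. There was 1 library on each side, so this compares libraries and has no test. Over the regions, Spearman's rho between the replicates was 0.825 for far intergenic and 0.883 for other distal heights, as a description of regions that share both libraries.

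The share higher in replicate 2 moved with base composition. Of 525 far intergenic regions under 45% GC, 40.6% were higher in replicate 2 and 1.90% in replicate 1. Of 511 at 60% GC or more, 7.83% were higher in replicate 2 and 13.5% in replicate 1. Other distal regions ran the same way, with 34.4% and 4.96% higher in replicate 2 in these bins. In every GC bin the far intergenic share exceeded the other distal share for both directions. Regions with a CEBP consensus (TTGCNNAA), the site of C/EBP factors of metabolic and stress genes, were higher in replicate 2 in 36.02% of 472 cases, and other distal regions with it in 31.5%. Regions with the consensus of REST, a repressor of neuronal genes, were higher in replicate 2 in 1 of 38 cases. The exact interval was 0.0666% to 13.8%, and the share was 7.8% of other distal regions with a REST match. CEBP and REST were named from the 27 consensus sequences after the values were seen. Of 18 far intergenic regions with the MEF2 consensus, 38.9% were higher in replicate 2. With the RFX and EGR consensus it was 0 of 4 regions each. The median GC content was 50% with a CEBP match and 50.7% with a REST match. Whether library preparation, base composition or the tissue samples set these differences was not tested.

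**Figure D2:**
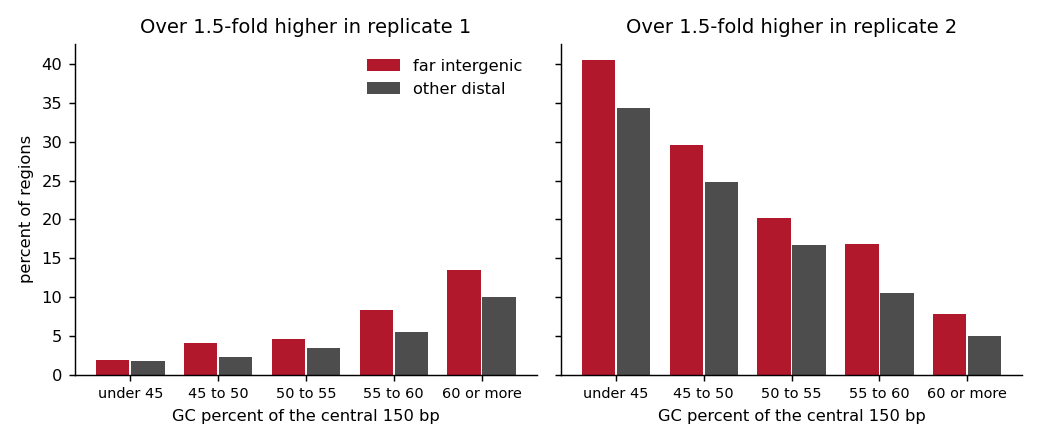
Percent of far intergenic and other distal regions over 1.5-fold higher in replicate 1 (left panel) or in replicate 2 (right panel) after division by the median ratio, by GC percent of the central 150 bp. The share higher in replicate 2 is 40.6% of far intergenic regions under 45% GC and 7.83% at 60% or more.

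Within bins of height, the footprint share of far intergenic regions was close to or above that of other distal regions. A footprint in both libraries overlapped 3959 far intergenic regions (78.8%, exact 95% interval 77.7 to 79.9), against 86.5% of other distal regions and 81.8% of promoters. Below a mean height of 0.5 the share was 49.2% of far intergenic and 50.7% of other distal regions. At 0.5 to 1 it was 87.1% and 81.7%, and at 1 to 2 it was 98.0% and 96.1%. Far intergenic regions were concentrated in the low bins, with 30.5% of them below 0.5, against 10.9% of other distal regions. Footprint calling needs cuts, so a region without one is a region where none was detectable at its depth.

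CTCF matches stood out among 27 consensus sequences searched on both strands of the central 150 bp. They were found in 453 far intergenic regions (9.02%, 8.24 to 9.85), against 0.129% of windows 1 kb to the side of these regions. The share was 11.8% in other distal regions and 1.20% in promoters. It was larger among higher regions. Of far intergenic regions, 3.85% had a match at a mean height below 0.5, 14.9% at 1 to 2, 26.8% at 2 to 4 and 23.5% at 4 or more, against 2.97%, 12.9%, 26.3% and 26.2% of other distal regions. Far intergenic regions with a match had median heights of 1.01 in replicate 1 and 1.36 in replicate 2, against 0.547 and 0.735 for those without. In 355 of them (78.4%) the match lay in a footprint in both libraries, against 90% of other distal matches.

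**Figure D3:**
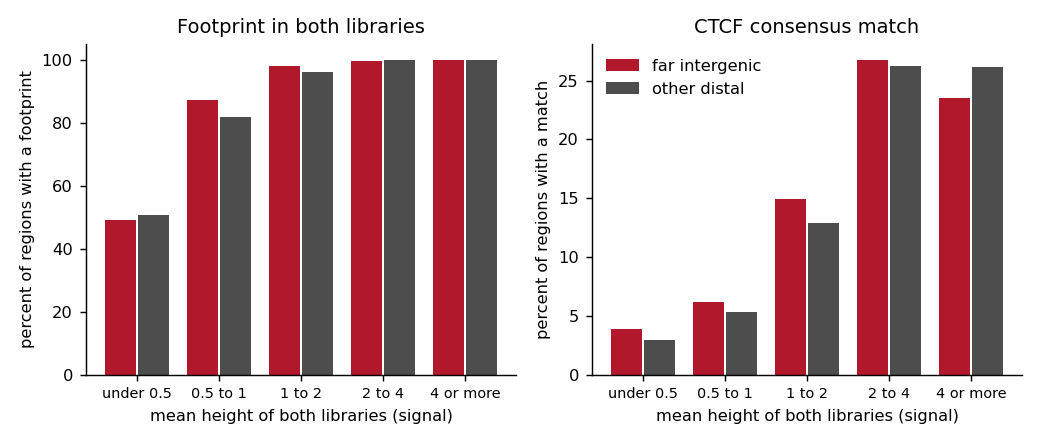
Percent of far intergenic and other distal regions with a footprint in both libraries (left) and with a CTCF consensus match (right), by the mean height of both libraries (signal). Below a mean height of 0.5 the footprint shares are 49.2% and 50.7%, and at 2 to 4 the CTCF shares are 26.8% and 26.3%.

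Among the other consensus sequences, several were more frequent at far intergenic centres than in their flanks. The E-box CAGCTG, a site of basic helix-loop-helix factors, was in 809 regions (16.1%), against 6.39% of flanks and 14.5% of other distal regions. AP-1, the site of FOS and JUN proteins, was in 570 (11.4%), against 4.42% and 10.1%. CEBP was in 472 (9.40%), against 7.13% and 7.26%. The NR5A1 consensus was in 1.99%, against 0.936% of flanks and 1.97% of other distal regions. REST was in 38 regions (0.757%), against 0.119% of flanks, and 20 of these matches were footprinted in both libraries. The octamer ATGCAAAT of POU factors was rarer at far intergenic centres than in their flanks, 0.597% against 1.38%. SP/KLF (GGGGCGGGG), common in promoters at 12.6%, was in 1.02% of far intergenic and 1.78% of other distal regions. In both libraries, 42 regions had a footprinted AP-1 match, 117 a footprinted E-box match and 6 a footprinted NR5A1 match. These were 7.37%, 14.5% and 6.00% of the regions with a match, against 78.4% for CTCF. A consensus match is a description of letters in the reference and not of a bound factor, and centres were richer in GC than flanks.

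**Figure D4:**
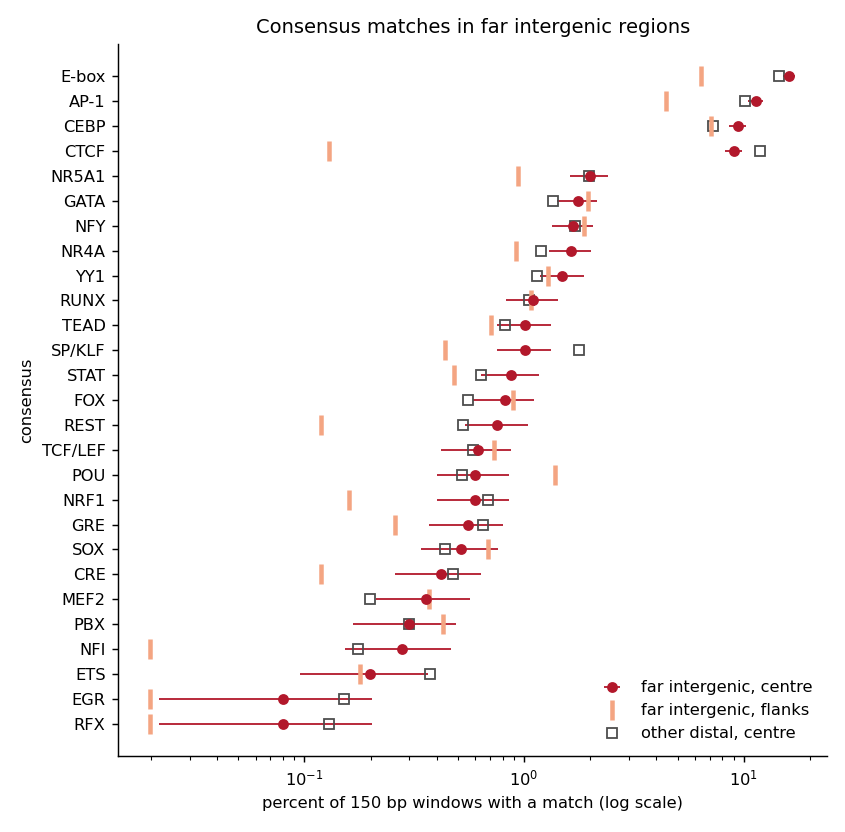
Percent of 150 bp windows with a match to each of 27 consensus sequences (log axis) in far intergenic regions with exact 95% intervals (filled circles), in their flanks 1 kb away (bars) and in other distal regions (open squares). CTCF stands at 9.02% in far intergenic regions against 0.129% in their flanks, the widest gap on this log scale among the 27.

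Far intergenic regions lay at noncoding starts about as often as intergenic regions nearer to genes, and more of them lay in noncoding gene bodies. Within 1 kb of a start of a gene that is not typed protein-coding lay 439 (8.74%), against 8.90% of intergenic regions 1 to 100 kb from a protein-coding start. Within 1 kb of long noncoding RNA starts lay 288 (5.73%), against 5.71% of those nearer regions. Long noncoding gene bodies held 981 (19.5%), against 13.8%. When starts and bodies of all annotated genes are kept away from, 606 regions remain. Regions at a long noncoding start had median heights of 0.672 in replicate 1 and 0.908 in replicate 2, against 0.563 and 0.765 for the others, and a GC content of 54.7% against 52.0%. Gm26901 on chromosome 1 had 2 of the highest, chr1:7397821-7398040 at 6.93 and 7.85 and chr1:7398081-7398320 at 6.84 and 5.70. Lncpint, a long noncoding RNA induced by p53, had 5.39 and 4.95 at chr6:31216341-31216960.

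The annotation's gene types decided some of these cases. Zswim6, Trerf1 and Dcdc5 are typed protein-coding in RefSeq but not in GENCODE vM21. In all, 80 regions lay in the body of a RefSeq protein-coding gene. Some of these genes are typed protein-coding in both annotations, such as Zfp536 with 6 regions and Ppargc1a with 4. Counting a RefSeq start within 100 kb as well, 334 regions (6.65%) would fail the rule by RefSeq, and 39 lay within 1 kb of a RefSeq start. The largest cluster, 11 regions within 7.80 kb on chromosome 17 between Ubr2 and Mrps10, lay around the start of Trerf1, whose protein regulates the gene of the steroidogenic enzyme CYP11A1 in human cells. Its median heights were 0.876 and 0.915. The cluster of 9 between Kif2a and Ndufaf2 lay around the start of Zswim6, a zinc finger gene, and its highest region, chr13:107890021-107890460, had 7.35 and 7.59. These regions meet the 100 kb rule by GENCODE and not by RefSeq. This check was added after the values were seen.

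Antigen receptor loci formed a second such case, also chosen after the values were seen. Their variable, diversity and joining segments have gene types of their own, so the rule does not keep away from them. Within 100 kb of a segment start lay 60 regions, 30 of them on chromosome 12, the immunoglobulin heavy chain locus, and 20 on chromosome 14. Of these 60, 21 (35.0%, exact interval 23.1 to 48.4) had a CTCF match, against 8.70% of the other far intergenic regions. On chromosome 12 it was 15 of 30, and 8 of these were footprinted in both libraries. Their heights were not high, with medians of 0.480 in replicate 1 and 0.563 in replicate 2, against 0.568 and 0.772 for the other regions. The windows of 17 of the 30 on chromosome 12 hold repeated words. The highest in the stretch between Adam6a and Zfp386 lay 435.3 kb from the edge of Adam6a, with 4.62 and 5.91, and had no match.

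Far intergenic regions were grouped into gaps, the stretches between neighbouring protein-coding gene bodies. Of 2024 gaps with eligible sequence, 1210 (59.8%) held at least 1 region, and 216 of the 1210 held 50% of all regions. The median was 3 regions per gap. The gap between Myc, the growth-promoting transcription factor gene, and Gsdmc held the most, 39 regions in 1.79 Mb on chromosome 15. Of these, 14 lay in the long noncoding gene Pvt1. Their median heights were 0.467 in replicate 1 and 0.705 in replicate 2, and the highest, 1662 kb from the edge of Myc, had 3.65 and 4.07. None of the 39 had a CTCF match.

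The gap between Med13l, a subunit gene of the Mediator complex, and the T-box factor gene Tbx3 held 33, with medians of 0.775 and 0.765 and 2 CTCF matches. That between Kif2a and Ndufaf2 held 30, with medians of 0.640 and 0.994. The gap between Adam6a and Zfp386 held 29, with medians of 0.483 and 0.517, and 15 of them (51.7%) had a CTCF match. The gap between Klf4, a zinc finger factor gene, and Actl7b held 25, with medians of 0.552 and 0.802 and no CTCF match, and 10 of them formed a cluster of 34.3 kb. The gaps were ranked by number, and their medians lay on both sides of the far intergenic medians of 0.568 and 0.772.

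**Figure D5:**
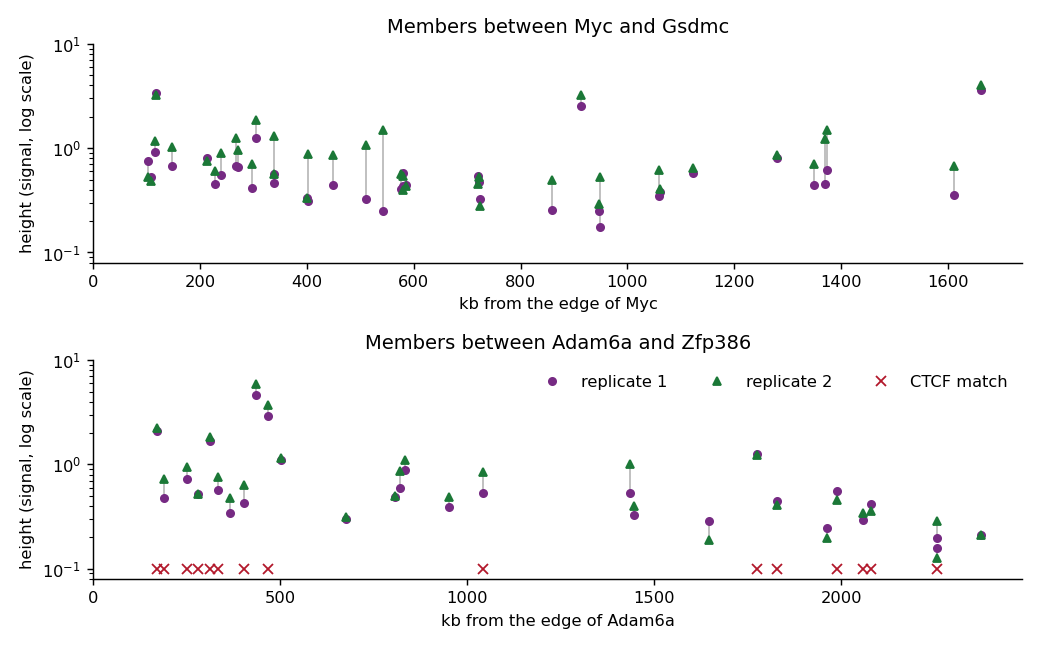
Heights (signal, log axis) of the far intergenic regions between Myc and Gsdmc (39 regions, top) and between Adam6a and Zfp386 (29 regions, bottom) by distance in kb from the edge of the left gene, in replicate 1 (circles) and replicate 2 (triangles), joined by grey lines. Crosses mark the 15 regions with a CTCF match between Adam6a and Zfp386, and the Myc gap has none.

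Not all large gaps were populated. Of 242 gaps with at least 1 Mb of eligible sequence, 51 held no region. The gap between the cadherin genes Cdh6 and Cdh9, with 3.35 Mb eligible, held 0. That between Slc39a10 and Tmeff2, with 3.82 Mb, held 1. The gap between G6pd2 and the protocadherin gene Pcdh7, with 3.58 Mb, held 1. Within gaps, 1864 regions (37.1%, exact interval 35.8 to 38.5) lay within 10 kb of another far intergenic region, and 56.4% of other distal regions lay within 10 kb of another of their own. Other distal regions were also denser, at 21.6 against 5.88 per Mb, and these shares were not adjusted for density. The far intergenic share was 24.4% with the shorter peak lists. Clustered regions had medians of 0.648 and 0.874, against 0.520 and 0.720 for the others.

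Genes for developmental transcription factors bordered the gaps in most cases. Of 58 on the list, 48 (82.8%) bordered a gap with a far intergenic region, beside 9.7% of 21911 protein-coding genes, and 42 (72.4%) had the nearest start to one, beside 7.51% of all. Of 44 secreted signals and antagonists, 35 (79.5%) bordered such a gap, and of 46 cell adhesion genes, 37 (80.4%). These genes were listed knowing that they tend to flank long gene-free stretches: 53 of the 58 factors, 38 of the 44 signals and 43 of the 46 adhesion genes border eligible sequence at all, against 14.9% of all protein-coding genes.

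Per length of that sequence the density differed between lists. Gaps bordered by the developmental factors held 448 regions in 45.4 Mb, or 9.87 per Mb, and those bordered by the signals 153 in 15.9 Mb, or 9.64 per Mb. Gaps bordered by the adhesion genes held 198 regions in 110.4 Mb, or 1.79 per Mb, beside 5.88 per Mb over all gaps. A density near that of the factors was not particular to them: gaps of the endothelial genes held 10.04 per Mb, of the fibroblast and mural genes 11.1, of the macrophage genes 8.32 and of the hepatocyte genes 5.83, each over less than 3 Mb. The 1 housekeeping gene had 1 region in 0.00713 Mb, or 140.3 per Mb. The difference between lists was not tested, since the genes were not drawn at random.

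Among the factors, Sox9, which directs cartilage and testis development, had 29 regions in its gaps and was nearest to 20. Their medians were 0.648 in replicate 1 and 1.07 in replicate 2. The highest, chr11:113165201-113165420, lay 383.1 kb from Sox9 and had 3.98 and 4.16 (4.07 ± 0.122, SD, n = 2). Meis1, a homeobox gene, had 27 in its gaps and was nearest to 13. Nr2f2, an orphan nuclear receptor gene of mesenchyme and veins, had 20, with medians of 0.406 and 0.427. The highest in its gaps had 2.07 and 2.55 and lay 741.8 kb from the nearest start, that of Arrdc4. Maf, a basic leucine zipper gene, had 19. Among the signals, Fgf9, a fibroblast growth factor gene, had 16, the chemokine gene Cxcl12 had 12 and Bmp2 had 11, and the highest region at Bmp7 is CTCF 3 above. Among the adhesion genes, the latrophilin gene Adgrl2 had 25, with medians of 0.499 and 0.622.

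Genes of the adrenal's own cell types bordered such gaps less often than the factors, at shares above that of all genes. Of 24 cortex genes 5 did, among them Mc2r, the receptor for ACTH, with 13 regions in its gaps, Gata6 with 12, Cited2 with 11 and Tcf21 with 3. The share of 20.8% stood beside 9.7% of all genes, and the gaps held 47 regions in 5.25 Mb, or 8.95 per Mb. Eligible sequence was bordered at all by 5 of the 24 cortex genes and 9 of the 22 medulla genes (40.9%), against 14.9% of all protein-coding genes. Cited2, a transcriptional co-regulator needed to form the adrenal gland, was the nearest gene of 10 regions. The highest in its gaps, chr10:15300181-15300360, had 2.37 and 3.10 (2.74 ± 0.521) and lay 540.1 kb from the nearest start, that of Nmbr. Gaps bordered by medulla genes held 3.99 regions per Mb, below the 5.88 per Mb over all gaps. Of 22 medulla genes 6 bordered a gap with a region (27.3%), led by the zinc finger factor gene Gata3 with 8. The highest of these lay 1204 kb from the start of Gata3 with 1.22 and 2.02. The enzyme genes of the catecholamine pathway were not among the 6.

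For the other cell types of the gland, the share of listed genes that bordered such a gap differed, beside 9.7% of all genes. It was 28.6% for endothelial genes, 21.4% for fibroblast and mural genes and 7.14% for macrophage genes. Eligible sequence was bordered at all by 28.6%, 35.7% and 14.3% of these genes, against 14.9% of all protein-coding genes. Of 14 endothelial genes 4 bordered a gap with a region, with Cdh5, the endothelial cadherin, at 10 regions and Kdr, a receptor for VEGF, at 4. Cdh5 was the nearest gene of 4 of its 10. The highest of the 10 lay in a gap that the adhesion gene Cdh11 also borders. The 4 at Kdr had medians of 1.38 and 2.02, above the far intergenic medians in both libraries. Of 14 fibroblast and mural genes 3 did, with Dcn, which encodes the matrix proteoglycan decorin, at 14. Its highest, chr10:97313041-97313240, lay 166.5 kb from Dcn and had 6.88 and 5.77 (6.33 ± 0.782). Of 14 macrophage genes 1 did, Ptprc, the leukocyte antigen CD45, with 9. Of 14 hepatocyte genes, listed as a control from another organ, 1 did, Apob with 14 regions, and of 14 housekeeping genes 1 did, Ywhaz with 1.

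The 10 highest far intergenic regions included several in repeated sequence. The highest, chr17:39846781-39846900, had 72.2 and 79.4 (75.8 ± 5.15) and lay in the annotated ribosomal RNA gene CT010467.1, with 91.3% of its words repeated in the genome. The next, chr3:5860361-5860530, had 25.9 and 29.7 (27.8 ± 2.72), and every word of its window was repeated, some found 13 times. The region chr1:122357141-122357300 had 15.8 and 15.8, with 17.4% of words repeated. These shares count copies in assembled sequence only, so a low share does not show that a region is unique. Whether regions outside CT010467.1 carry ribosomal RNA sequence from copies missing from the assembly was not tested. Of the 10 highest, 6 held a repeated word, against 6.61% of all far intergenic regions. Among the 4 without one, chr2:128396041-128396200, 195.1 kb from Spdye4c, had 8.24 and 7.18 (7.71 ± 0.748). Over all far intergenic regions, those with a repeated word had medians of 0.443 and 0.488, against 0.579 and 0.795 for those without, so repeated sequence was common at the top and not in general.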

How the data were processed

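DNase-seq peaks, footprints and false discovery rates (FDR) of 2 libraries were used. Per the index text deposited with them, the authors made each from 1 library's filtered alignment to mm10. Neither aligner nor callers are named in the sources used here. The deposited peak height is a depth-normalised signal. The deposited footprint score is 0.01 in every row and was not used. The deposited FDR is a q-value listed up to 0.05, and every peak of the longer lists (98630 and 118249 peaks) held a listed position in its own library.

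Regions were merged on an overlap of at least 1 bp and placed with GENCODE vM21 (21938 protein-coding genes, 58745 starts) on the GRCm38 assembly. Motifs and GC used the central 150 bp, and a footprinted match lay within a footprint extended by 3 bp. Repeated sequence meant a 36-base word found more than once in the genome, counted on the assembled chromosomes and the mitochondrial genome. RefSeq genes of the same assembly were a check. Shares carry exact Clopper-Pearson 95% intervals, for counting error only, and ± is the SD over 2 libraries. Regions are not replicates, so no test was run. The regions and gene lists were chosen with earlier results of these data known. Named regions were the 10 highest, the 5 farthest, the 5 fullest gaps, the 5 highest with a footprinted CTCF or NR5A1 match, and up to 5 listed genes per list, ranked by regions in their gaps. Others were named after their values were seen. Code was checked on simulated data (Python 3.11.15, NumPy 2.4.6, pandas 2.3.3, SciPy 1.17.1). Some listed genes are not reported here.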

Additional observations from a re-analysis of the deposited data

How the results depend on the processing

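Values of 14 results were recomputed in 106 alternatives, and 53 moved by less than the spread between the libraries taken alone, the exact interval or, for the number of regions, 1.5 times. With the shorter peak lists there were 2451 far intergenic regions, 2.87 per Mb and 5.66% of shared regions, with a median height of 1.10 over both libraries (0.670 with the longer lists), a footprint share of 96.0%, a CTCF share of 14.1%, 25.1% past 1.5-fold between replicates, 69.2% of replicate 1 peaks recurring and 24.4% of regions within 10 kb of another. With a limit of 50 kb there were 8706 regions, 13.2% of shared regions, with a height of 0.755, a footprint share of 81.3%, a CTCF share of 9.43% and 26.8% past 1.5-fold. With a limit of 200 kb there were 2390, 3.63% of shared regions, with 0.594 and a footprint share of 75.7%. Keeping away from all annotated genes left 606, 0.921% of shared regions, with 0.584 and a footprint share of 74.8%. Peaks overlapping by at least 50% gave a height of 0.761, a footprint share of 85.1% and a CTCF share of 10.7%. Searched over the whole region, the NR5A1 share was 3.20% (1.99% in the window). With a listed FDR position in place of a peak, 59.9% and 42.9% of peaks recurred. Leaving out windows with repeated words moved no number, height, footprint or CTCF share beyond the spread. The same held without regions at RefSeq protein-coding genes, and for the CTCF share without antigen receptor loci, both chosen after seeing the data. The share within 1 kb of a noncoding start did move without windows with repeated words, from 8.74% to 7.25%. With 1 library alone, the number ranged from 8753 to 12802, the density from 10.2 to 14.98 per Mb, the share of regions from 9.07% to 11.04%, the height from 0.382 to 0.420, the footprint share from 65.5% to 66.8%, the CTCF share from 4.83% to 5.34% and the share within 10 kb of another from 46.8% to 53.9%. No paired analysis was possible because there is 1 group.

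The libraries form 1 group and give no error beyond their spread. Footprints and low peaks depend on depth, a peak not listed is not shown to be closed chromatin, and how the CAST/EiJ alleles affect alignment and motif matches was not tested.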
